A study of Mus musculus with 50 samples.

Results

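The genes described here form the machinery by which mouse cells sense DNA and RNA in the cytosol and in endosomes. The set was chosen by name, with earlier results of these data known, and held 10 symbols: Cgas, Tmem173, Tbk1, Irf3, Mavs, Ddx58, Ifih1, Dhx58, Trex1 and Tlr3. All but Trex1 were matched by Ensembl identifier to a row of the count table, so 9 genes of 37469 are described, and each of the 9 was among the 19327 genes tested. In GENCODE M21 on mm10 the DNA-sensing genes lie at chr9:78430526-78443237 (Cgas, minus strand) and chr18:35733679-35740554 (Tmem173, minus). The RNA-sensing genes lie at chr4:40203773-40239828 (Ddx58, minus), chr2:62595798-62646255 (Ifih1, minus), chr11:100694884-100704271 (Dhx58, minus), chr8:45395665-45411080 (Tlr3, minus) and chr2:131234063-131248025 (Mavs, plus). Tbk1 lies at chr10:121546455-121586787 (minus) and Irf3 at chr7:44997648-45002848 (plus), and all are protein-coding. Trex1 (chr9:109057933-109059734), whose 1147 exon bases all overlap exons of Atrip, was not analysed here.

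The genes were read in 48 bulk tumor RNA libraries from p53/MCA sarcomas of 129/SvJae mice, harvested 3 days after treatment. Primary tumors arose in p53FL/FL mice aged 6 to 10 weeks, after adenovirus carrying Cre recombinase was injected into the gastrocnemius to delete p53, followed by 300 µg of the carcinogen 3-methylcholanthrene (MCA). Transplant tumors grew in the same muscle of syngeneic mice from 50000 cells of the line 402230, so every transplant descended from 1 line, whereas each primary tumor arose separately. At a tumor volume that the sample labels give as about 150 mm3, mice received 200 µg of isotype control or anti-PD-1 antibody (muDX400) and then 0 or 20 Gy to the hind limb. Each of the 4 treatments was given to 8 primary tumors and 4 transplants, and "untreated" below means isotype control at 0 Gy. The titles give each tumor its own mouse number, and 2 further libraries carry the number 402230.

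Cytosolic double-stranded DNA is bound by cGAS, which makes a cyclic dinucleotide that activates STING, the product of Tmem173. Viral and mislocalized RNA is bound by the helicases RIG-I (Ddx58) and MDA5 (Ifih1), which signal through MAVS on mitochondria, while LGP2 (Dhx58) modulates them and TLR3 senses double-stranded RNA in endosomes. These routes converge on the kinase TBK1 and the transcription factor IRF3, which switch on type I interferon. Interferon in turn raises the transcription of many sensor genes.

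The tumor libraries held between 31810461 and 54008259 counts, and the lowest count of any of the 9 genes in any tumor was 346, for Tlr3. Values are given as CPM, counts scaled to a common library total by edgeR's TMM factors, and a gene was called where its adjusted p was below 0.05 in edgeR's quasi-likelihood test. Where groups are said not to overlap, the share of all tested genes that did the same was not counted. In bulk tissue, fewer cells of a type and less RNA per cell cannot be told apart. Summed CPM of the leukocyte markers Ptprc, Laptm5 and Coro1a had a median of 457 in untreated primary tumors, 810 after 20 Gy alone, 525 in untreated transplants and 1402 in irradiated transplants. Summed CPM of 9 skeletal muscle markers ranged from 13.7 to 85789 over the primary tumors given both treatments, and that list had no more than 20733 in any transplant.

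The markers went against the titles of both 402230 libraries. The library titled P0I-402230 bears the code of untreated primary tumors, and it held 5 counts of Ptprc, 1 of Laptm5 and 17 of Coro1a. The library titled CL0I-402230, labelled as a cell line, held 3779, 6471 and 3129 counts of the same genes, together with 1115 CPM over 8 macrophage markers and 178 CPM over 5 red blood cell genes. In P0I-402230 the sums were 3.61 CPM over the macrophage markers, 0.0874 over the red blood cell genes and 0.590 over 5 endothelial markers. Markers of these cells were thus near 0 in the library labelled as the primary tumor and were present in the other one. Over 5 mesenchymal markers the sums were 4673 CPM in P0I-402230 and 10545 CPM in CL0I-402230. Both are named by their titles below and were left out of every test in this section. P0I-402230 was added to the untreated primary tumors in 1 alternative fit only.

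Sequence around the start sites was examined for the core of the interferon-stimulated response element (ISRE), a promoter element through which interferon raises transcription and which IRF proteins bind. The core was taken as the 10 letters GAAANNGAAA on either strand, and it occurred in 3.44% of the 32851 RefSeq promoter windows of GRCm38.p6, each running from 250 bases before to 50 bases after a start. Windows were searched for 8 of the 10 listed symbols. Dhx58 had none, and Tmem173 was left out of the search, so nothing is said of its promoter. The core was found for Ifih1 and Ddx58 and not in the windows of Cgas, Tbk1, Irf3, Mavs, Tlr3 or Trex1. The gamma-activated site core, TTCNNNGAA, which occurred in 8.3% of all windows, was in none of the 8 genes' windows. Sites are shown for every searched gene with a match, and capitals mark the core.
Ifih1, chr2:62646206-62646235, minus strand, core from base 33 after the start: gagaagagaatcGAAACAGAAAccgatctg
Ddx58, chr4:40239804-40239833, minus strand, core read on the other strand from base 3 after the start: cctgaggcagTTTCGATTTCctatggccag

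In untreated primary tumors, the order of levels per kilobase of exon was led by Tmem173, at 22.5 ± 3.91 RPKM (CPM per kilobase of exon, SD, n = 8). Mavs (12.9 ± 1.46 RPKM), Ddx58 (12.1 ± 6.01), Irf3 (11.4 ± 1.25) and Tbk1 (9.89 ± 1.22) came next. Dhx58 had 8.31 ± 6.55 RPKM, Ifih1 had 5.81 ± 3.92, Cgas had 4.06 ± 1.08 and Tlr3 had 3.45 ± 1.46. Tmem173 was thus the most abundant of the 9 per length and stood clear of Mavs, whose highest tumor had 15.1 RPKM against 18.8 in the lowest tumor for Tmem173. Every other pair of neighbours in that order overlapped in range. The spread also separated the genes, since the within-group SD of log2 CPM was 0.15 for Irf3 and 0.18 for Tbk1, lower than for all but 0.548% and 2.09% of tested genes, against 0.57 for Ifih1, Dhx58 and Tlr3.

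**Figure D1:**
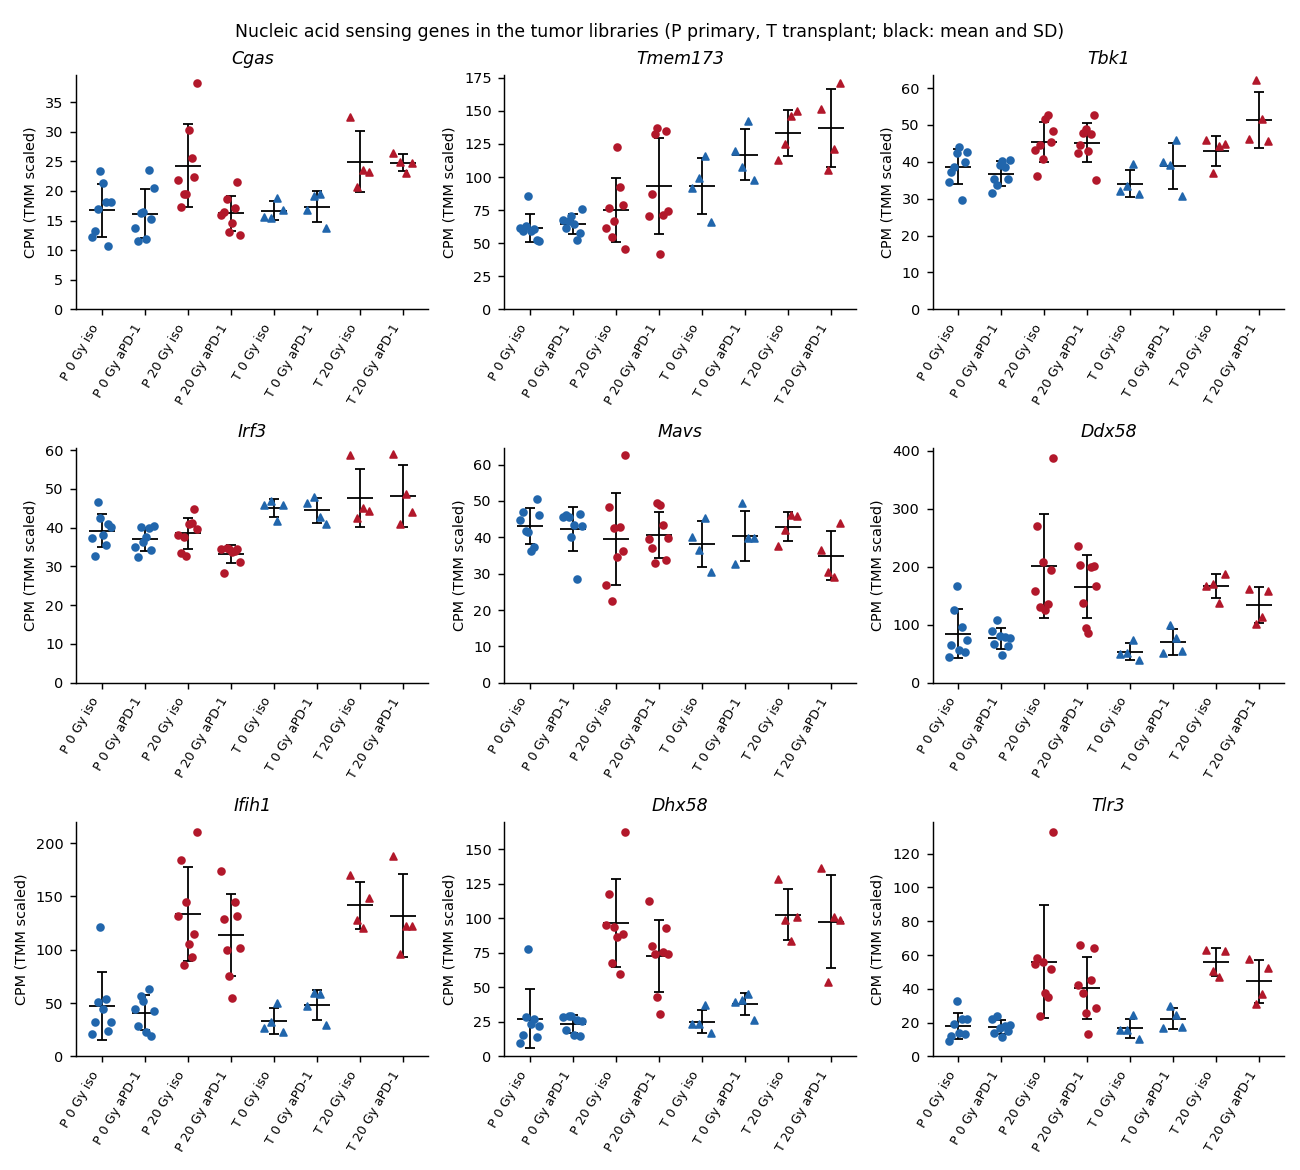
CPM of the 9 genes (y axis, linear, from 0) in each of 48 tumor libraries by group (x axis), with circles for primary tumors, triangles for transplants, blue for 0 Gy, red for 20 Gy, and black bars for mean and SD. Dhx58, Ifih1, Ddx58 and Tlr3 sit higher in the red groups, whereas Irf3 and Mavs do not separate by dose.

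The question of the first comparisons was which sensors changed 3 days after 20 Gy. The 3 RNA helicases and Tlr3 rose in both tumor models when radiation was given alone. In primary tumors 5 of the 9 genes were called higher, where 9.19% of all tested genes were, and the median log2 fold change was 0.54 over the 9 genes and -0.01 over all tested genes. In transplants 4 of the 9 were called higher against 1.82% of all tested genes, with medians of 0.58 and -0.03.

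Dhx58, which encodes LGP2, a helicase without the signaling domains of its relatives, had 9.86, 22.6 and 77.7 CPM as the lowest, median and highest of the untreated primary tumors and 59.7, 91.2 and 162 CPM after 20 Gy alone. Of the 8 irradiated primary tumors 6 exceeded the highest untreated one, so the groups overlapped through a single high untreated tumor. The log2 fold change was 1.83 ± 0.291 (SE), a 3.54-fold rise (adjusted p = 2.2e-05). In transplants Dhx58 had 23.2, 23.6, 37.2 and 16.7 CPM untreated and 128.3, 98.5, 83.2 and 100.6 CPM after 20 Gy. The transplant groups did not overlap, and the log2 fold change was 2.03 ± 0.414 (adjusted p = 0.00447).

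Ifih1, which encodes MDA5, the sensor of long double-stranded RNA, had 21.3, 38.5 and 121.1 CPM (lowest, median, highest) in untreated primary tumors and 85.7, 123.5 and 210 CPM after 20 Gy. Its log2 fold change was 1.496 ± 0.284 (adjusted p = 0.000205), and 4 of 8 irradiated tumors exceeded every untreated one. Transplants had 26.8, 32.4, 49.9 and 22.4 CPM untreated and 169.8, 128.3, 120.7 and 148.4 CPM after 20 Gy, a 4.32-fold rise and the largest of the 9 genes in that comparison (log2 2.11 ± 0.410, adjusted p = 0.00321). All 4 irradiated transplants lay above all 4 untreated ones.

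Ddx58, which encodes RIG-I, the sensor of short RNA with a 5′ triphosphate, had 43.9, 69.2 and 166 CPM (lowest, median, highest) in untreated primary tumors and 125.5, 176 and 388 CPM after 20 Gy. The rise was 2.37-fold (log2 1.24 ± 0.246, adjusted p = 0.000342), with 4 of 8 irradiated tumors above every untreated one. Transplants went from 49.8, 51.1, 73.6 and 39.5 CPM to 167, 171, 138.2 and 188 CPM (log2 1.64 ± 0.352, adjusted p = 0.00734), with no overlap. This call in transplants was lost without untreated replicate 4, the lowest of its group (adjusted p = 0.0688).

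Tlr3, the endosomal receptor for double-stranded RNA, had 9.24, 16.6 and 32.8 CPM (lowest, median, highest) in untreated primary tumors and 24.0, 53.0 and 132.8 CPM after 20 Gy (log2 1.64 ± 0.283, adjusted p = 5.86e-05). In transplants it went from 15.5, 15.7, 24.4 and 10.5 CPM to 63.2, 50.7, 46.9 and 62.4 CPM (log2 1.75 ± 0.402, adjusted p = 0.0127). Of the irradiated tumors, 7 of 8 primary tumors and all 4 irradiated transplants lay above every untreated tumor of their model. The transplant call was lost when untreated replicate 1, 2 or 4 was left out, with adjusted p up to 0.0980. An antisense gene, Gm45542, shares 7.32% of the exon bases of Tlr3, and Dhx58os shares 4.31% of those of Dhx58, so a small part of their counts is uncertain where strand was not used in counting.

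The rise of these 4 genes was also examined beside the leukocyte markers, which moved with radiation. With the mean log2 CPM of the 3 leukocyte markers added to the model as a covariate, the log2 fold changes after 20 Gy alone were 1.35 for Ddx58, 1.45 for Ifih1, 1.71 for Dhx58 and 1.63 for Tlr3 in primary tumors, all 4 still called. In transplants they were 1.81, 2.03, 1.81 and 1.73, and Tlr3 alone lost its call (adjusted p = 0.0544). Over all tested genes, this fit called 779 higher in primary tumors and 86 in transplants. This fit was added after the data had been seen. In transplants the leukocyte sums did not overlap between the groups, at 410 to 898 CPM untreated and 1116 to 1441 CPM after 20 Gy.

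**Figure D2:**
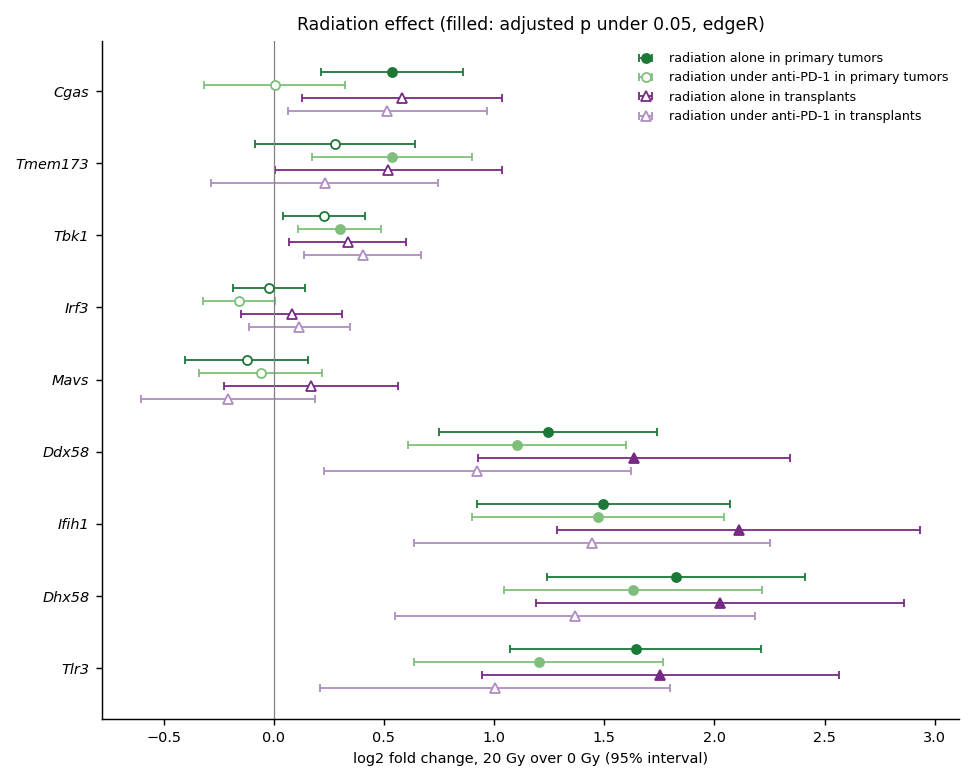
Log2 fold change of 20 Gy over 0 Gy with its 95% interval (x axis) for each gene (y axis) in 4 contexts, circles for primary tumors and triangles for transplants, filled where the gene was called by edgeR. Ddx58, Ifih1, Dhx58 and Tlr3 sit right of 0 in all 4 contexts, and Irf3 and Mavs straddle 0.

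When anti-PD-1 was present at both doses, 6 of the 9 genes were called higher after 20 Gy in primary tumors, where 7.92% of all tested genes were. Dhx58 rose 3.10-fold (log2 1.63 ± 0.289, adjusted p = 0.000259), from a range of 14.4 to 29.4 CPM to one of 30.3 to 112.6 CPM, with all 8 irradiated tumors above all 8 unirradiated ones. Ifih1 rose 2.77-fold (adjusted p = 0.000685), Tlr3 2.30-fold (adjusted p = 0.00401) and Ddx58 2.15-fold (adjusted p = 0.00255). In transplants under anti-PD-1 none of the 9 was called, where 0.538% of all tested genes were called higher. An unadjusted p below 0.05 in that direction was found for 6 of the 9 and for 7.95% of all tested genes. Their log2 fold changes there were 1.44 ± 0.401 for Ifih1 (adjusted p = 0.0708), 1.37 ± 0.406 for Dhx58 (adjusted p = 0.0906), 1.003 ± 0.394 for Tlr3 and 0.92 ± 0.346 for Ddx58. For each of these 4 genes, all 4 irradiated transplants lay above all 4 unirradiated ones. How many of all tested genes separated in this way was not counted. DESeq2 called Ifih1 and Dhx58, limma voom called Ifih1, and the filter on low counts also decided the Ifih1 call (adjusted p = 0.0205 to 0.387 over its 18 alternatives).

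In the DNA-sensing arm, Cgas and Tmem173 moved less, and in primary tumors they were called in different radiation comparisons. Cgas had 10.6, 17.6 and 23.4 CPM (lowest, median, highest) in untreated primary tumors and 17.2, 22.1 and 38.3 CPM after 20 Gy alone, a 1.45-fold rise (log2 0.54 ± 0.159, adjusted p = 0.0147). The groups overlapped, with 3 of 8 irradiated tumors above every untreated one. Under anti-PD-1 the log2 fold change of Cgas was 0.00 ± 0.159 (95% interval -0.32 to 0.32). The difference between these 2 effects was -0.53 on the log2 scale (95% interval -0.98 to -0.08, adjusted p = 0.776), so it was not called. In transplants Cgas had 15.6, 15.5, 18.8 and 16.8 CPM untreated and 32.5, 20.7, 23.5 and 23.1 CPM after 20 Gy. All 4 irradiated transplants lay above the untreated ones, but the log2 fold change of 0.58 ± 0.225 had an adjusted p of 0.226. Under anti-PD-1 the transplants again did not overlap by dose, with a log2 fold change of 0.52 ± 0.225 (adjusted p = 0.298). The share of all tested genes without such overlap was not counted. With the leukocyte covariate the rise in primary tumors was 0.44 and no longer called (adjusted p = 0.136), and 4.87% of the exon bases of Cgas are shared with the pseudogene Gm8093 on the other strand.

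Tmem173, the STING gene, had 51.4, 60.05 and 86.0 CPM (lowest, median, highest) in untreated primary tumors and 45.5, 71.5 and 122.4 CPM after 20 Gy alone. That difference was within the spread (log2 0.28 ± 0.180, adjusted p = 0.289), and 1 irradiated tumor lay below every untreated one. Under anti-PD-1 its values widened from 52.0 to 75.7 CPM at 0 Gy to 41.5 to 136.7 CPM at 20 Gy, and it was called higher (log2 0.54 ± 0.181, adjusted p = 0.0462). That call held in 12 of 26 alternatives, with adjusted p from 0.00677 to 0.579. The summed leukocyte markers in the same irradiated tumors ran from 312 to 1616 CPM, and with the leukocyte covariate the change was 0.14 (adjusted p = 0.579). In transplants the log2 fold change of Tmem173 was 0.52 ± 0.255 after 20 Gy alone (adjusted p = 0.405). Of those irradiated transplants, 3 lay above every untreated one. Under anti-PD-1 it was 0.23 ± 0.255 (adjusted p = 0.777). With the leukocyte covariate these 2 changes were -0.21 and -0.43, neither called.

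Downstream of the sensors, Tbk1 alone was called in a radiation comparison. Tbk1, the kinase that phosphorylates IRF3, rose 1.23-fold in primary tumors under anti-PD-1 (log2 0.30 ± 0.0929, adjusted p = 0.0300), and 7 of 8 irradiated tumors exceeded every unirradiated one. That call held in 16 of 26 alternatives, and with the leukocyte covariate the change was 0.21 (adjusted p = 0.148). After 20 Gy alone its log2 fold change in primary tumors was 0.23 ± 0.0928 (adjusted p = 0.0792). In transplants Tbk1 had 0.33 ± 0.131 after 20 Gy alone (adjusted p = 0.239) and 0.40 ± 0.131 under anti-PD-1 (adjusted p = 0.130). With the leukocyte covariate these transplant values were 0.11 and 0.20. Irf3 had 32.6, 39.1 and 46.6 CPM (lowest, median, highest) in untreated and 32.7, 38.9 and 44.7 CPM in irradiated primary tumors, and the 95% interval of its log2 fold change was -0.19 to 0.14. The transplant interval of Irf3 was -0.15 to 0.31. For Mavs, the mitochondrial adaptor, the intervals were -0.40 to 0.15 in primary tumors and -0.22 to 0.56 in transplants. Irf3 and Mavs were called in none of the 4 radiation comparisons, and an increase of 2-fold, 1 on the log2 scale, lies outside each of these intervals.

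The radiation effect was compared between models and between antibodies. None of the 9 genes was called for a difference in the effect of 20 Gy between transplants and primary tumors, where 5 genes of all tested were called (0.0259%, edgeR). No member had an unadjusted p below 0.05, where 8.55% of all tested genes did. Limma voom and DESeq2 called no member and 7 and 65 genes. The widest interval was that of Dhx58, whose difference was -0.03 (95% interval -0.73 to 0.67). Between antibodies in primary tumors no gene at all was called by edgeR (0%), with 1168 genes at an unadjusted p below 0.05, among them Cgas. DESeq2 called 11 genes there, none of them a member, and limma voom called 0.

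Anti-PD-1 antibody was compared with isotype at each dose in each model. In all 4 contexts edgeR and limma voom called 0 genes (0%), while DESeq2 called 6 genes in primary tumors at 0 Gy, 44 in primary tumors at 20 Gy and 1 in transplants at each dose, none of them a member. The share of tested genes with an unadjusted p below 0.05 in edgeR was 3.66%, 10.1%, 0.678% and 2.65% in that order. Of the 9 genes 2 had one, both in irradiated primary tumors. Cgas was lower under anti-PD-1 in irradiated primary tumors, at 16.2 ± 2.93 CPM against 24.3 ± 6.98 CPM (mean and SD), with 6 of 8 tumors below every isotype tumor. Its log2 difference was -0.58 ± 0.159 (adjusted p = 0.217). Irf3 had 33.2 ± 2.31 CPM against 38.6 ± 4.01 CPM there, with 2 of 8 tumors below every isotype tumor. Its log2 difference was -0.22 ± 0.0807 (adjusted p = 0.398). In unirradiated transplants the 4 radiation-associated genes had positive differences of 0.40 for Ddx58, 0.56 for Ifih1, 0.59 for Dhx58 and 0.42 for Tlr3, each with an interval that included 0.

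The combination of 20 Gy and anti-PD-1 was also set against the untreated tumors, which the radiation-alone comparison shares. In primary tumors 5 genes were called higher, where 11.4% of all tested genes were, and 1 lower, where 7.44% were. Dhx58 (log2 1.42 ± 0.288), Ifih1 (1.26 ± 0.282), Tlr3 (1.16 ± 0.280) and Ddx58 (0.96 ± 0.245) rose, as did Tmem173 (0.60 ± 0.181, adjusted p = 0.0168). Irf3 fell by 0.24 on the log2 scale (SE 0.0807, adjusted p = 0.0311), a call that held in 8 of 26 alternatives. With the leukocyte covariate Tmem173 had a log2 fold change of 0.09 (adjusted p = 0.756), whereas the 4 radiation-associated genes kept their calls. That fit called 1003 of all tested genes higher there. In transplants 5 genes were called higher against 4.13% of all tested genes. Tbk1 had 32.0, 33.5, 39.5 and 31.3 CPM untreated and 46.1, 62.1, 51.7 and 45.7 CPM after the combination, a 1.51-fold rise with no overlap (log2 0.59 ± 0.132, adjusted p = 0.00555). Ifih1 rose 4.02-fold, Dhx58 3.87-fold, Tlr3 2.69-fold and Ddx58 2.50-fold. Leaving out untreated replicate 1, 2 or 4 or combination replicate 1 ended the calls of Ddx58 and Tlr3, and leaving out combination replicate 4 ended that of Tlr3. With the leukocyte covariate all 5 lost their calls, in a fit that called 2 of all tested genes. The log2 fold changes were then 1.53 for Ddx58, 1.91 for Ifih1, 1.71 for Dhx58, 1.39 for Tlr3 and 0.33 for Tbk1. The leukocyte sums did not overlap between these groups, at 410 to 898 CPM untreated and 1409 to 1847 CPM after the combination.

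Transplant and primary tumors were compared within each treatment to see whether the models differed in these genes. Tmem173 was the member that differed most often, always higher in transplants. Untreated transplants had 91.9, 99.3, 115.8 and 65.8 CPM and untreated primary tumors had 51.4, 60.05 and 86.0 CPM (lowest, median, highest). Of the 4 transplants 3 exceeded every primary tumor, but the log2 difference of 0.60 ± 0.216 had an adjusted p of 0.0686. None of the 9 genes was called, where 3.88% of all tested genes were called higher. An unadjusted p below 0.05 in that direction was found for 2 members and for 10.6% of all tested genes. DESeq2 and limma voom called none of the 9 either. Under anti-PD-1 the transplants had 119.5, 107.8, 142.5 and 98.01 CPM and the primary tumors 52.0 to 75.7 CPM. These groups did not overlap, and the difference was called (log2 0.86 ± 0.215, adjusted p = 0.00921, with 3.39% of all tested genes called higher). After 20 Gy alone it was called again (log2 0.84 ± 0.215, adjusted p = 0.0156, with 2.47% of all tested genes higher). After the combination it was 0.55 ± 0.217 (adjusted p = 0.107).

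Leaving out 1 transplant ended 2 of these Tmem173 calls. Without replicate 3 of the transplants given anti-PD-1 the adjusted p was 0.0955, and without replicate 3 or 4 of the transplants given 20 Gy it reached 0.0808. Leukocyte marker sums were also higher in transplants, with medians of 525 against 457 CPM untreated, 735 against 546 under anti-PD-1, 1402 against 810 after 20 Gy and 1470 against 806 after the combination. With the leukocyte covariate the Tmem173 differences were 0.34, 0.54, 0.40 and -0.04 in that order, called under anti-PD-1 only (adjusted p = 0.0195). That fit called 698, 448, 789 and 19 of all tested genes higher, in the same order.

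After the combination, Irf3 and Cgas were the members that were higher in transplants, where 3.04% of all tested genes were. Irf3 had 59.0, 40.9, 48.6 and 44.1 CPM in transplants and 28.3, 34.2 and 34.8 CPM (lowest, median, highest) in primary tumors. The groups did not overlap (log2 0.54 ± 0.0970, adjusted p = 0.00136), and the call held in 21 of 22 alternatives. Bcl2l12, a protein-coding gene on the other strand, shares 2.56% of the exon bases of Irf3. A small part of the Irf3 counts is therefore uncertain where strand was not used in counting. The Irf3 difference was positive under each of the other treatments too, at 0.20 untreated, 0.26 under anti-PD-1 and 0.31 after 20 Gy, with adjusted p of 0.190, 0.0905 and 0.0593. Cgas had 26.5, 24.95, 22.95 and 24.7 CPM in transplants and 12.5, 16.1 and 21.4 CPM in primary tumors given the combination (log2 0.61 ± 0.190, adjusted p = 0.0422), and its call held in 8 of 22 alternatives. None of the helicases was called between the models under any treatment. The lowest unadjusted p among them was that of untreated Ddx58, which was lower in transplants (log2 -0.67 ± 0.306, adjusted p = 0.159).

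Tumors also varied within groups, and the 4 radiation-associated genes varied together. Over 48 libraries with group means subtracted, Pearson's r among Ddx58, Ifih1, Dhx58 and Tlr3 ran from 0.79 to 0.94 over their 6 pairs, and Spearman's rho from 0.82 to 0.94. Each had a permutation p of 1e-05, the smallest that the permutations can give, among 36 pairs computed. Within primary tumors r ran from 0.78 to 0.95 (n = 32) and within transplants from 0.73 to 0.96 (n = 16). Leaving out the 2 libraries farthest from the median gave 0.81 to 0.93. The other 30 pairs ran from -0.13 to 0.59. Cgas had r = 0.59 to Ifih1 (rho = 0.57), 0.58 to Dhx58 (rho = 0.57), 0.55 to Tlr3 (rho = 0.54), 0.51 to Tbk1 (rho = 0.58), 0.45 to Ddx58 (rho = 0.41) and 0.44 to Irf3 (rho = 0.49), whereas Tmem173 had r of 0.11 to Ddx58 and 0.23 to Ifih1. The latter pairs differed by model, at 0.02 and 0.15 in primary tumors and 0.60 and 0.62 in transplants, a difference that was not tested.

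**Figure D3:**
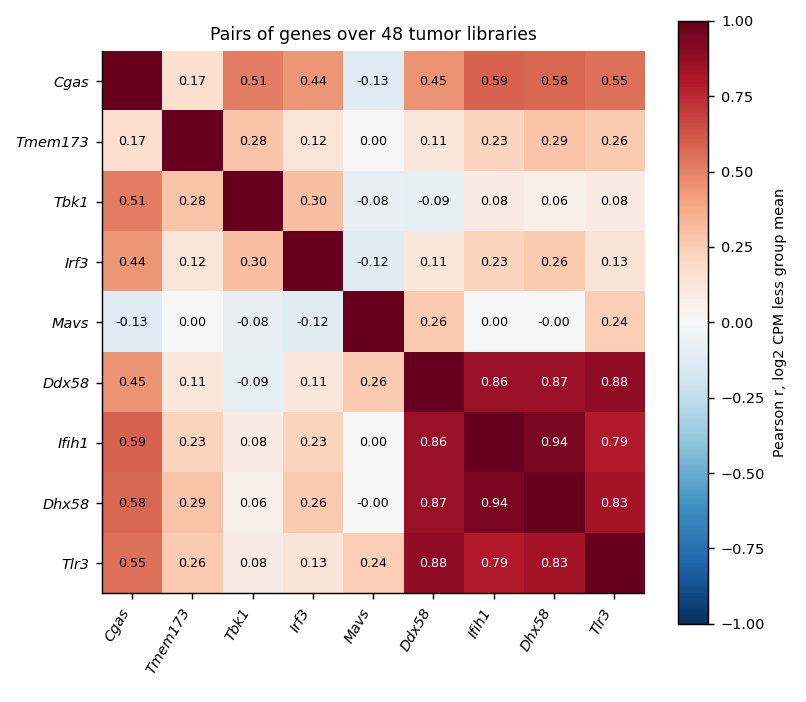
Pearson's r for each pair of genes (rows and columns, color from -1 to 1) over 48 tumor libraries after subtraction of group means. The block of Ddx58, Ifih1, Dhx58 and Tlr3 holds values from 0.79 to 0.94, above the 0.59 that is the highest of the other pairs.

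The genes with the most similar patterns were found among 12130 genes with an average log2 CPM of at least 2, again over 48 libraries with group means subtracted and given without a test. Ifih1 and Dhx58 both resembled most the interferon-stimulated gene Ifi44 (r = 0.96 for each). Ddx58 was nearest to Eif2ak2, which encodes the RNA-activated kinase PKR (r = 0.93), then to Oasl2 and Adar (0.92 each), and Tlr3 was nearest to Ddx58 itself (0.88), Parp11 and Adar (0.88 each). Tmem173 was nearest to Itgal (0.86), an integrin chain of leukocytes, the cytokine receptor chain Il12rb1 (0.85) and Irf8 (0.85), a transcription factor of myeloid cells. Mavs was nearest to Vcp (0.82), Trappc9 (0.82) and Rptor (0.80). Cgas was nearest to Inip (0.73), Fbxw17 and Ddx60 (0.71 each), Tbk1 to Kdm4c and Skap2 (0.68 each) and Stat6 (0.67), and Irf3 to Trmt2a (0.61), Zbtb48 and Rmi1 (0.59 each).

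Tmem173 tracked the leukocyte markers from tumor to tumor. Its r to their mean log2 CPM was 0.79 (rho = 0.63) over 48 libraries with group means subtracted among 9 genes correlated with that list, with a permutation p of 1e-05 for both, the smallest that the permutations can give. It was 0.71 without the 2 libraries farthest from the median, 0.85 within primary tumors (n = 32) and 0.53 within transplants (n = 16). Tbk1 followed with r = 0.50 (rho = 0.57, permutation p = 0.000240 and 5e-05), at 0.53 without the 2 farthest libraries, 0.38 in primary tumors and 0.87 in transplants. The other 7 genes lay between -0.20 and 0.19, with a permutation p of at least 0.177 for r. These permutations shuffled libraries across groups, whereas those for pairs of genes shuffled within groups. The groups differed in spread, with an SD of log2 CPM of Tmem173 from 0.17 to 0.60, so the p-values for this list are approximate and may be too small. Over all 48 tumors r was 0.07 for Ifih1, 0.13 for Dhx58, -0.12 for Ddx58 and 0.09 for Tlr3. Within the 16 transplants it was 0.64, 0.48, 0.29 and 0.38 for these genes and 0.58 for Cgas, and within primary tumors it lay between -0.20 and 0.06 for the former and was 0.13 for Cgas.

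**Figure D4:**
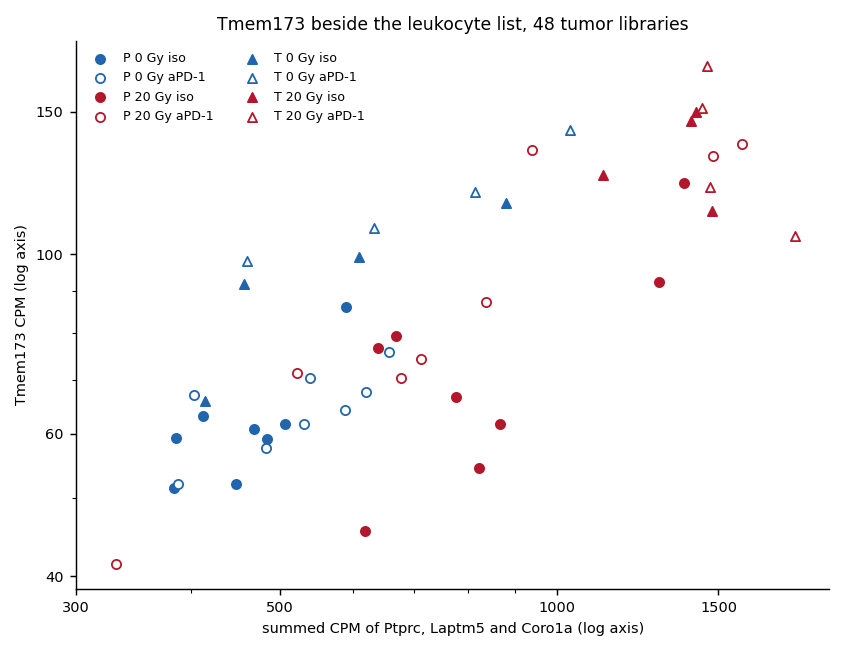
Tmem173 CPM (y axis, log) against the summed CPM of Ptprc, Laptm5 and Coro1a (x axis, log) in 48 tumor libraries, with circles for primary tumors, triangles for transplants, blue for 0 Gy, red for 20 Gy and open symbols for anti-PD-1. The 2 measures rise together, and 7 of 8 unirradiated transplants lie above every unirradiated primary tumor in Tmem173.

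The 2 libraries of line 402230 were set beside untreated tumors without a test, with exact Poisson 95% intervals that cover counting error only and CPM scaled over all 50 libraries. In the library titled P0I-402230, where leukocyte markers were near 0, Tmem173 had 36.7 CPM (35.0 to 38.5). This lay below all 4 untreated transplants (65.1 to 118.1 CPM) and all 8 untreated primary tumors (51.1 to 84.7 CPM), but was 1679 counts. In the library titled CL0I-402230, Tmem173 had 58.6 CPM (56.5 to 60.8), below every untreated transplant as well, but scaled by library total alone it had 69.0 CPM, above the lowest of them (66.9 CPM). The values of P0I-402230 for Tmem173, Cgas, Tbk1 and Mavs kept their place beside the untreated tumors under that scaling. Cgas was higher in P0I-402230, at 24.5 CPM (23.1 to 25.995), than in all 12 untreated tumors, whereas CL0I-402230 had 10.8 CPM (9.93 to 11.8). Tbk1 (56.1 CPM) and Mavs (57.9 CPM) in P0I-402230 also exceeded all untreated tumors, and Ddx58 at 111.6 CPM exceeded all 4 transplants and 6 of 8 primary tumors. In CL0I-402230 the values of Ddx58 (44.8 CPM), Ifih1 (24.4), Dhx58 (16.7) and Tlr3 (15.4) lay within the range of the untreated transplants. Every one of the 9 genes therefore had at least 517 counts in the library whose leukocyte markers were near 0, and Ifih1, Dhx58 and Tlr3 lay there at 28.8, 16.9 and 11.3 CPM.

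**Figure D5:**
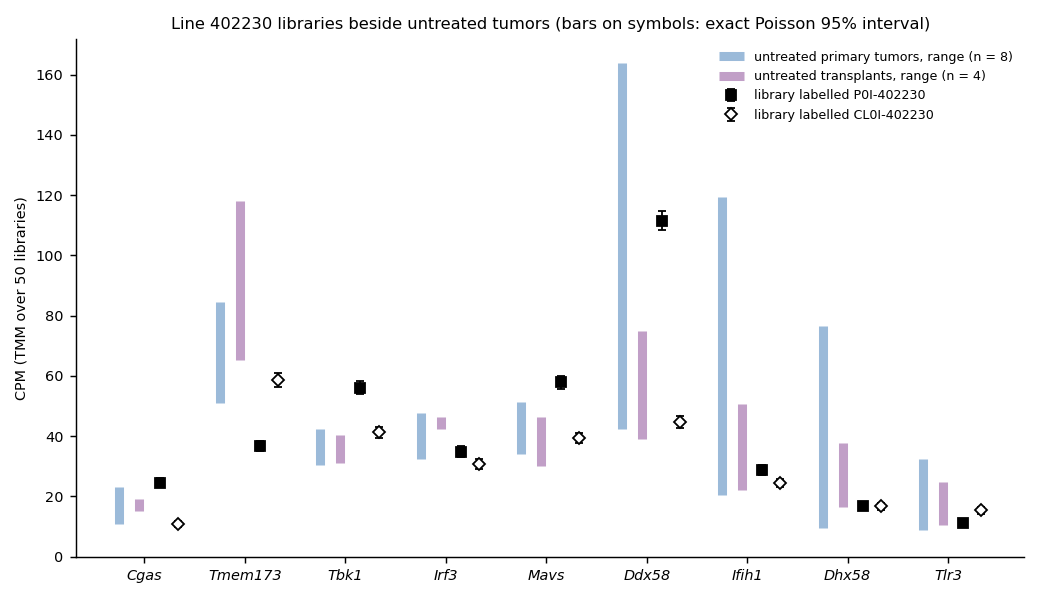
CPM (y axis, linear, from 0) of the 9 genes (x axis) in the libraries titled P0I-402230 (filled squares) and CL0I-402230 (open diamonds) with exact Poisson 95% intervals, beside the ranges of 8 untreated primary tumors (blue bars) and 4 untreated transplants (purple bars). Tmem173 in P0I-402230 lies under both bars at 36.7 CPM, and Cgas, Tbk1 and Mavs lie over both.

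The rest of the pathway was read through lists of other genes. These lists were chosen with earlier results of these data known, so their counts of called genes are descriptive only. Of 11 other RNA sensors and RIG-I cofactors, 10 were called higher after 20 Gy alone in primary tumors and 9 in transplants, none lower. Over all tested genes, 9.19% and 1.82% were called higher. The list's median log2 fold changes were 1.18 and 1.30, against -0.01 and -0.03 over all tested genes. Oas3, which makes the activator of RNase L, rose by 2.65 ± 0.386 in primary tumors and by 2.95 ± 0.553 in transplants on the log2 scale. Oasl1 rose by 2.22 ± 0.412 and 3.19 ± 0.607, and Oas2 by 2.39 ± 0.324 and 2.31 ± 0.458. Under anti-PD-1, 10 of the 11 were called in primary tumors and 2, Oasl1 and Oas2, in transplants. The shares of all tested genes called higher there were 7.92% and 0.538%.

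Other DNA sensors split in direction. Of 16, 7 rose and 4 fell after 20 Gy alone in primary tumors, with a median of -0.20, and 6 rose and none fell in transplants, with a median of 0.17. Of all tested genes, 9.19% were higher and 9.1% lower in primary tumors and 1.82% higher and 0.103% lower in transplants. Those that rose most were the interferon-inducible Ifi209 (log2 2.44 ± 0.352 in primary tumors, 2.23 ± 0.493 in transplants), Zbp1, a sensor of Z-form nucleic acid (2.43 ± 0.343 and 1.92 ± 0.476), and Ifi204 (1.83 ± 0.213 and 1.53 ± 0.298). Those that fell in primary tumors included 2 DNA repair proteins that also bind DNA ends, Xrcc5 (-1.02 ± 0.176) and Mre11a (-0.48 ± 0.142), and the helicase Dhx36 (-0.44 ± 0.133). In transplants these had -0.26, -0.03 and -0.04, with adjusted p of at least 0.774. Reads of Ifi209 and Ifi204 can be shared among close relatives in their gene cluster, so their individual values are uncertain. Of 9 endosomal receptors and adaptors, 6 rose in primary tumors and 5 in transplants, led by Tlr9, the receptor for CpG DNA (1.67 ± 0.352 and 2.20 ± 0.506).

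After 20 Gy alone, 9.19% of all tested genes were called higher in primary tumors and 1.82% in transplants. Among 12 kinases, adaptors and transcription factors downstream, 5 rose in primary tumors and 3 in transplants. These were led by Irf7, the interferon-inducible relative of Irf3 (log2 2.46 ± 0.393 and 3.10 ± 0.570), with Irf5 (1.34 ± 0.225 and 1.30 ± 0.318) and Ikbke, a kinase related to Tbk1 (1.25 ± 0.220 and 1.22 ± 0.310). Irf7 went from 199 ± 223 to 1095 ± 186 CPM in primary tumors (SD, n = 8), and the ranges of 50.5 to 739 and 749 to 1306 CPM did not overlap. Of 15 nucleases and negative regulators, 5 rose in primary tumors and 3 in transplants and none fell, with medians of -0.01 and 0.01 against -0.01 and -0.03 over all tested genes. Among them were Usp18, a brake on interferon signaling (1.89 ± 0.460 and 2.81 ± 0.674), and Samhd1, which degrades deoxynucleotides (1.54 ± 0.240 and 1.25 ± 0.336).

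Interferon-stimulated genes were read next, and what raised them was not tested. The list held 12 genes and was chosen with earlier results of these data known. All 12 rose after 20 Gy alone in primary tumors and 11 of 12 in transplants. Over all tested genes, 9.19% and 1.82% were called higher. The list's median log2 fold changes were 2.19 and 2.65. Ccl5, a T cell chemokine, rose by 2.74 ± 0.450 in primary tumors, and the antiviral genes Rsad2 and Ifit3 rose by 3.39 ± 0.671 and 3.27 ± 0.663 in transplants. Under anti-PD-1 all 12 rose in primary tumors and 1, Ifit2, in transplants, where the list's median was 1.93. The shares of all tested genes called higher were 7.92% and 0.538% under anti-PD-1. Of 13 interferon genes and their receptor pathway, 8 could be tested, and 6 rose in primary tumors and 2 in transplants after 20 Gy alone. Ifnb1, the interferon beta gene, was very low, at 0.11 ± 0.19 CPM untreated and 0.64 ± 0.38 CPM irradiated in primary tumors (SD, n = 8; log2 2.52 ± 0.677, adjusted p = 0.00723). Stat2 rose by 1.72 ± 0.246 and 1.61 ± 0.346. Ifna2, Ifna4, Ifne, Ifnl2 and Ifnl3 had at most 17 counts in any tumor and were not tested.

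The same lists were also compared between models. Of all tested genes, 10.3% were called in either direction untreated, 7.35% under anti-PD-1, 4.87% after 20 Gy and 6.76% after the combination. None of the 12 interferon-stimulated genes and none of the 11 RNA sensors was called between transplants and primary tumors under any of the 4 treatments, and their medians ran from -0.45 to 0.33 and from -0.26 to 0.13. Enpp1, which degrades the cyclic dinucleotide made by cGAS, was lower in transplants after 20 Gy alone (log2 -2.17 ± 0.567, adjusted p = 0.0176) and after the combination (-2.97 ± 0.595, adjusted p = 0.00347). Under anti-PD-1, Zbp1 (1.28 ± 0.385), Ifi209 (1.23 ± 0.396) and Samhd1 (1.11 ± 0.278) were higher in transplants. After the combination, Aim2 (1.24 ± 0.330), Irf5 (0.90 ± 0.263), Ikbke (0.89 ± 0.258) and Myd88 (0.67 ± 0.159) were higher. Ticam1, the adaptor of TLR3, was lower in untreated transplants (-0.52 ± 0.152, adjusted p = 0.0212).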

How the data were processed

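RNA was extracted from tumors with an RNA integrity number above 7 and made into libraries with a stranded mRNA kit (KAPA). Per the labels and methods, reads were cleaned with Trimmomatic 0.36 and mapped by STAR to mm10, and the authors deposited raw counts per gene from HTSeq with GENCODE annotation and no normalization. The STAR version differs between the sources used here, and the strand setting of the counting is not given in them. From the deposited counts, groups were formed by the labels of tumor type, dose and antibody. One model with 8 group means was fitted to 48 tumors in edgeR 4.0.16 under R 4.3.3 (TMM scaling, filterByExpr, robust quasi-likelihood F test, two-sided), with Benjamini-Hochberg adjustment over 19327 genes and a threshold of 0.05. Log2 CPM used a prior count of 0.5, and RPKM used exon lengths of GENCODE M21. Intervals are 95% intervals. Correlations were tested with 100000 permutations, within groups for pairs of genes and across groups for the leukocyte list. DESeq2 1.42.0, limma 3.58.1 and other settings were tried as alternatives. The test was checked on simulated data. All 9 genes, up to 3 called genes at each end of each list, and the 3 most similar genes per gene were named. The genes and lists were chosen with earlier results of these data known. Among all 136 pairs of libraries within groups, none had counts that agreed within sampling noise.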

Additional observations from a re-analysis of the deposited data

Results flagged for a closer look

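Among 72 sets of values, 1 for each of the 9 genes in each of the 8 tumor groups, 3 held a library far from the others of its group by Dixon's ratio, and chance alone flags about 1 set in 20. Tmem173 in untreated primary tumor replicate 4 had a log2 CPM of 6.43, against 5.98 in the next highest tumor. Without this library the untreated difference between transplants and primary tumors was called (adjusted p = 0.0360). Tbk1 in replicate 2 of the transplants given 20 Gy alone had 5.21, against 5.47 in the nearest. Mavs in replicate 6 of the primary tumors given anti-PD-1 alone had 4.83, against 5.32 in the nearest. No difference between groups in a radiation effect was called for any of the 9 genes, as given above.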

How the results depend on the processing

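Each of the 16 comparisons was recomputed with other scaling, filters, tools and samples, and with skeletal muscle or leukocyte markers as a covariate, the last added after the data were seen. No called log2 fold change of any of the 9 genes changed sign under any alternative. Of 3663 recomputed gene values, 3556 kept their side of the threshold, 86 lost a call and 21 gained one, and 189 had the other sign, none of them called in either fit. Tmem173 for radiation alone in primary tumors, for example, had -0.27 with the leukocyte covariate. For radiation under anti-PD-1 in transplants, with 0 genes called, the stricter filter and limma voom called 1 and DESeq2 called 2. For untreated transplants against primary tumors, with 0 called, 1 was called with P0I-402230 added to the primary tumors or with only those 2 groups fitted. After 20 Gy alone that comparison fell from 1 to 0 with only its groups fitted or with the leukocyte covariate. After the combination it fell from 2 to 1 without a filter, with the leukocyte covariate or with P0I-402230 added, and to 0 with only its groups. Combination against untreated in transplants fell from 5 to 0 with the leukocyte covariate, where 2 genes of all tested were called, although the log2 fold changes of Ddx58, Ifih1, Dhx58 and Tlr3 were then 1.39 to 1.91. Leaving out 1 library gave 2 to 4 called genes for radiation alone in transplants and 3 to 5 for the combination against untreated there. It gave 0 to 1 for transplants against primary tumors untreated, under anti-PD-1 and after 20 Gy, and 1 to 2 after the combination. The cause of these changes was not tested. Fits of 2 groups or with a library left out also held fewer samples. The share of calls that were higher in primary tumors after 20 Gy alone was 50.3% with TMM and 60.7% with DESeq2. No paired analysis was possible because the labels give no replicate number that is shared between groups. Over all tested genes, calls in either direction numbered 3534 for radiation alone in primary tumors (1371 to 4198 over the alternatives), 2158 under anti-PD-1 (805 to 2920) and 372 for radiation alone in transplants (153 to 1047), and they ran from 1 to 479 for radiation under anti-PD-1 in transplants. They numbered 3635 for the combination against untreated in primary tumors (1396 to 4427), 852 in transplants (2 to 1202) and 1307 between the models after the combination (2 to 2043). Of the interferon genes, 5 had too few counts to be tested, and low expression and limited depth cannot be told apart there.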
